A study of Mus musculus with 70 samples.

Results

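Cd72, Gpr139, Cyp2s1 and Impg1 are 4 protein-coding mouse genes selected by name, out of 38293 gene lines counted, because their striatal levels were much lower in each of 3 models of thyroid hormone deficiency than in the matching controls. The values that chose them are the striatal comparisons of each model with its control, so these are given as a description, with no test. Comparisons within the cerebral cortex, whose libraries the choice did not use, are given with their tests.

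Thyroid hormone acts mainly through nuclear receptors for T3 that bind DNA near target genes, and much of the T3 in brain is made locally from T4. The striatum is built largely of medium spiny neurons and matures while the hormone is needed. Cd72 encodes a C-type lectin-like membrane protein known as an inhibitory co-receptor of B cells, where it binds semaphorin 4D and recruits the phosphatase SHP-1. Gpr139 encodes a Gq-coupled receptor of the brain that responds to aromatic amino acids. Cyp2s1 encodes a cytochrome P450, a haem enzyme whose human counterpart acts on retinoic acid and which is a known target of the aryl hydrocarbon receptor. Impg1 encodes a proteoglycan of the interphotoreceptor matrix, the hyaluronan-rich material around the outer segments of retinal photoreceptors.

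RNA was sequenced from cortex and striatum of 35 mice in 5 conditions, with 7 libraries in each of 10 groups. WT-MMI mice were male C57BL/6J wild types made hypothyroid through the drinking water of their dams, to which 1% potassium perchlorate, against iodide uptake by the thyroid, and 0.02% methimazole, against hormone production, had been added between embryonic day 9 and postnatal day 21. Mct8Dio2 KO mice were double knockouts for the genes joined in that name, of which Dio2 encodes a deiodinase converting T4 into T3. Both were compared with untreated WT mice. Mct8Slco1c1 KO mice were double knockouts in which Slco1c1, the gene of the T4 transporter OATP1C1, is the second target, and their controls were the wild types labelled WT (Mct8Slco1c1 ko), called WTa here. Hypothyroid and knockout mice were used at postnatal days 21 to 23. For WT and WTa mice no age is given in the sources used, and for groups other than WT-MMI no sex.

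Libraries held between 7802957 and 22485839 reads counted in genes. Levels are depth-normalised read counts (CPM) scaled over all 70 libraries, and with 7 libraries per group they are given as lowest, median and highest, with mean ± SD. Dio2 had 5.09 ± 0.969 CPM in striatum of Mct8Dio2 KO, against 109.7 ± 15.6 CPM in WT, and Slco1c1 had 45.0 ± 3.30 CPM in striatum of Mct8Slco1c1 KO, against 84.4 ± 4.69 CPM in WTa. Over 584 genes at least 4-fold different between control striatum and control cortex, the 4 members among them, libraries were scored so that the cortex controls averaged 0 and the striatum controls 1. The library labelled cortex Mct8Slco1c1 KO 7 lay at 0.929, against -0.088 to 0.097 for the other cortex libraries, and the library labelled striatum Mct8Slco1c1 KO 7 lay at -0.025, against 0.806 to 1.097 for the other striatum libraries. In the library labelled cortex Mct8Slco1c1 KO 1, 39.7% of reads did not align uniquely, against at most 31.8% elsewhere. Both libraries numbered 7 thus lay among those of the other tissue. Whether their tissue labels were exchanged was not tested, so a value of Mct8Slco1c1 KO given as labelled may include 1 library of the other tissue. These 3 libraries were kept as labelled, and results that rest on them are also given without them.

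Of the 4 genes, Cd72 lies at chr4:43446462-43454628, Cyp2s1 at chr7:25802475-25816913, Gpr139 at chr7:119140747-119184603 and Impg1 at chr9:80313330-80465481 in GRCm38, all on the minus strand. Because the genes moved together in striatum, the sequences around their starts are shown for the 3 genes with an entry in RefSeq (GRCm38.p6), from 250 bases before the start to 50 after it. They are written 5′ to 3′ in lower case, and capitals mark the matches to the half-site AGGTCA, the core hexamer that thyroid hormone receptors bind, on either strand. The RefSeq starts of all 3 genes lie inside the gene spans given above, that of Cd72 close to the end of its span.
Cd72, chr4:43454577-43454876, minus strand: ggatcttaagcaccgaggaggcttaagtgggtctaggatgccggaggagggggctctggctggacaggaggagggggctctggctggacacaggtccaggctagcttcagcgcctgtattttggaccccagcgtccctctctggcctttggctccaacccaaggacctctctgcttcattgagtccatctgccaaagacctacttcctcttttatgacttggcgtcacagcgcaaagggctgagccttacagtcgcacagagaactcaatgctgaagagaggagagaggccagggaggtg
Cyp2s1, chr7:25816476-25816775, minus strand: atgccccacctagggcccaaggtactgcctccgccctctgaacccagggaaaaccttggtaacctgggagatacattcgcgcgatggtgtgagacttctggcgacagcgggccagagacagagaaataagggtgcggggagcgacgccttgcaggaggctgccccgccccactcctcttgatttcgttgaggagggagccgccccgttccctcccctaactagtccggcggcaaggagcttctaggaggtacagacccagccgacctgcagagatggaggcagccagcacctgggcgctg
Impg1, chr9:80465389-80465688, minus strand: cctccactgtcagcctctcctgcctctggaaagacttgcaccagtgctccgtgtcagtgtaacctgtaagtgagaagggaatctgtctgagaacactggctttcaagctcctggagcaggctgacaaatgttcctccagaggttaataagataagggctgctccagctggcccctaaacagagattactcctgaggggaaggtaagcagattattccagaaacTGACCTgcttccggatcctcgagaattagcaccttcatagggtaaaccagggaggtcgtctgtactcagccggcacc

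The half-site had 1 match in these 3 promoters, in Impg1. The printed strand, which is the strand of the gene, reads TGACCT there, so that AGGTCA lies on the opposite strand. The first base of the match is at position -27 from the start, where position -1 is the base before the start. Though before the RefSeq start, the match lies inside the Impg1 gene span given above. The half-site was found in 16.25% of the 32544 mouse promoters of the same length, searched on both strands. The variant GGGTCA, in 13.73% of promoters, the variant AGTTCA, in 13.99%, and TATAAA, in 13.57%, had no match in the 3. The direct repeat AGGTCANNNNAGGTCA, which contains the half-site and is a classical thyroid hormone response element, was in 5 promoters (0.01536%), none of them of these genes. GC content was 57.7% for Cd72, 63.0% for Cyp2s1 and 52.0% for Impg1, against a median of 53.0% over all promoters. The promoters held 7 CpG dinucleotides in Cd72, 17 in Cyp2s1 and 5 in Impg1, against a median of 7 and quartiles of 3 and 20. None of the motifs searched was present in more than 1 of the 3.

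Cd72, the B cell co-receptor, was close to undetectable in striatum of all 3 models. It had 0, 0.265 and 0.565 CPM (lowest, median, highest) in WT-MMI and 0.187, 0.410 and 0.624 CPM in Mct8Dio2 KO, against 3.80, 6.20 and 7.84 CPM in WT. The means were 0.298 ± 0.198 CPM in WT-MMI, 0.388 ± 0.147 CPM in Mct8Dio2 KO and 5.82 ± 1.57 CPM in WT (SD, n = 7 each). In Mct8Slco1c1 KO it had 0.211, 0.402 and 0.476 CPM, against 3.79, 5.06 and 6.31 CPM in WTa. Every library of a model lay below every library of its control, as for 9.20%, 3.53% and 4.16% of all genes tested in striatum in WT-MMI, Mct8Dio2 KO and Mct8Slco1c1 KO, a contrast that chose the genes. In bulk tissue, fewer cells of a type and less RNA per cell cannot be told apart. These levels rest on 0 to 10 reads per library in WT-MMI, 2 to 9 in Mct8Dio2 KO and 2 to 8 in Mct8Slco1c1 KO, against 51 to 122 in WT and 41 to 83 in WTa. The WT-MMI library without a read allows up to 0.319 CPM, the level of 3 counts, for counting error only.

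On the log2 scale, striatal Cd72 differed by -4.12 ± 0.25 (SE) in WT-MMI, -3.84 ± 0.24 in Mct8Dio2 KO and -3.57 ± 0.25 in Mct8Slco1c1 KO (-3.63 ± 0.26 without the 3 libraries), or 17.4-fold, 14.4-fold and 11.9-fold lower. In cortex, where Cd72 had 0.730 ± 0.359 CPM in WT, none of the changes passed edgeR's quasi-likelihood test with Benjamini-Hochberg adjustment. They were -0.67 ± 0.35 in WT-MMI (adjusted p = 0.195), -0.46 ± 0.35 in Mct8Dio2 KO (adjusted p = 0.543) and -0.02 ± 0.39 in Mct8Slco1c1 KO (adjusted p = 0.982), the last turning to 0.17 ± 0.37 (adjusted p = 0.803) without the 3 libraries. In cortex, 9.74%, 4.19% and 5.85% of the 16198 genes tested were called lower in WT-MMI, Mct8Dio2 KO and Mct8Slco1c1 KO at an adjusted p under 0.05. These cortical values rest on 1 to 17 reads per library.

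Of the genes that define B cells, Cd79a, Cd79b and Ms4a1 were low in every striatal group, controls included. In striatum of WT, Ighm had 16.3 ± 5.10 CPM and Cd37 had 6.33 ± 1.055 CPM, beside 5.82 ± 1.57 CPM of Cd72. Ms4a1, which encodes CD20, averaged at most 0.0810 CPM in any striatal group. Cd79a, a subunit of the B cell receptor, had 0.0978 ± 0.0883 CPM in striatum of WT-MMI, against 0.129 ± 0.0819 CPM in WT, and Cd79b had 0.554 ± 0.227 CPM in WT-MMI, against 0.552 ± 0.128 CPM in WT. Per length, Cd79b had 0.386 ± 0.0894 RPKM in striatum of WT, where Cd72 had 1.70 ± 0.457 RPKM. Summed over the 14 counted B cell genes, the level ranged from 21.2 to 27.5 CPM in striatum of WT-MMI, 18.5 to 25.2 CPM in Mct8Dio2 KO and 24.1 to 36.7 CPM in WT, of which Ighm, the heavy chain of IgM, made up 16.3 ± 5.10 CPM in WT. It ranged from 14.1 to 23.3 CPM in Mct8Slco1c1 KO (19.5 to 23.3 CPM without library 7) and from 19.3 to 27.3 CPM in WTa. Of these genes 3 passed the filter on low counts. Bank1, 1 of the 3, changed in striatum by -0.32 ± 0.18, -0.32 ± 0.18 and 0.11 ± 0.19 as labelled (adjusted p = 0.175, 0.256 and 0.723). In cortex Bank1 was called in Mct8Dio2 KO only, at -0.84 ± 0.19 (adjusted p = 0.0042). Cd37, a tetraspanin of leukocytes, rose by 0.48 ± 0.13 in WT-MMI (adjusted p = 0.00505). Ighm fell in striatum, with changes of -0.39 ± 0.15 in WT-MMI (adjusted p = 0.0343) and -0.61 ± 0.15 in Mct8Dio2 KO (adjusted p = 0.00359), and measured -0.39 ± 0.15 in Mct8Slco1c1 KO (adjusted p = 0.0599). In cortex, where Cd72 was not called, Ighm changed by -1.49 ± 0.16, -1.83 ± 0.17 and -1.27 ± 0.17 in the 3 models (adjusted p = 1.36e-08, 9.54e-10 and 1.28e-06). The part of B cells in the Cd72 result was not tested.

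Of 12 signalling partners of Cd72, all tested, 5 rose in striatum of WT-MMI and 1 in Mct8Dio2 KO, with none lower, and 1 rose and 1 fell in Mct8Slco1c1 KO. Leaving those 3 libraries out, the counts of partners higher and lower were 5 and 0, 2 and 0, and 1 and 2. Over all 16267 genes tested in striatum, 16.0%, 7.08% and 11.2% were called higher in these models and 16.8%, 7.84% and 10.7% lower. When the 3 libraries were left out, 38.7%, 21.6% and 25.1% were called in either direction. The lipid phosphatase gene Inpp5d rose by 0.36 ± 0.08 in WT-MMI (adjusted p = 0.0006) and 0.25 ± 0.08 in Mct8Dio2 KO (adjusted p = 0.0276). Plcg2, a phospholipase C of immune cells, rose by 0.61 ± 0.12 (adjusted p = 0.000158) and the kinase gene Lyn by 0.44 ± 0.10 (adjusted p = 0.00078) in WT-MMI. These partners are shared with microglia, and 9 of 10 microglial markers rose in WT-MMI, 5 in Mct8Dio2 KO and 3 in Mct8Slco1c1 KO, with none lower. The summed level of these markers ranged from 658.9 to 801.4 CPM in WT-MMI, from 579.4 to 762.6 CPM in Mct8Dio2 KO and from 518.9 to 642.7 CPM in WT. Csf1r, the growth factor receptor of microglia, rose by 0.41 ± 0.07 in WT-MMI (adjusted p = 2.97e-05), opposite in direction to Cd72.

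**Figure D1:**
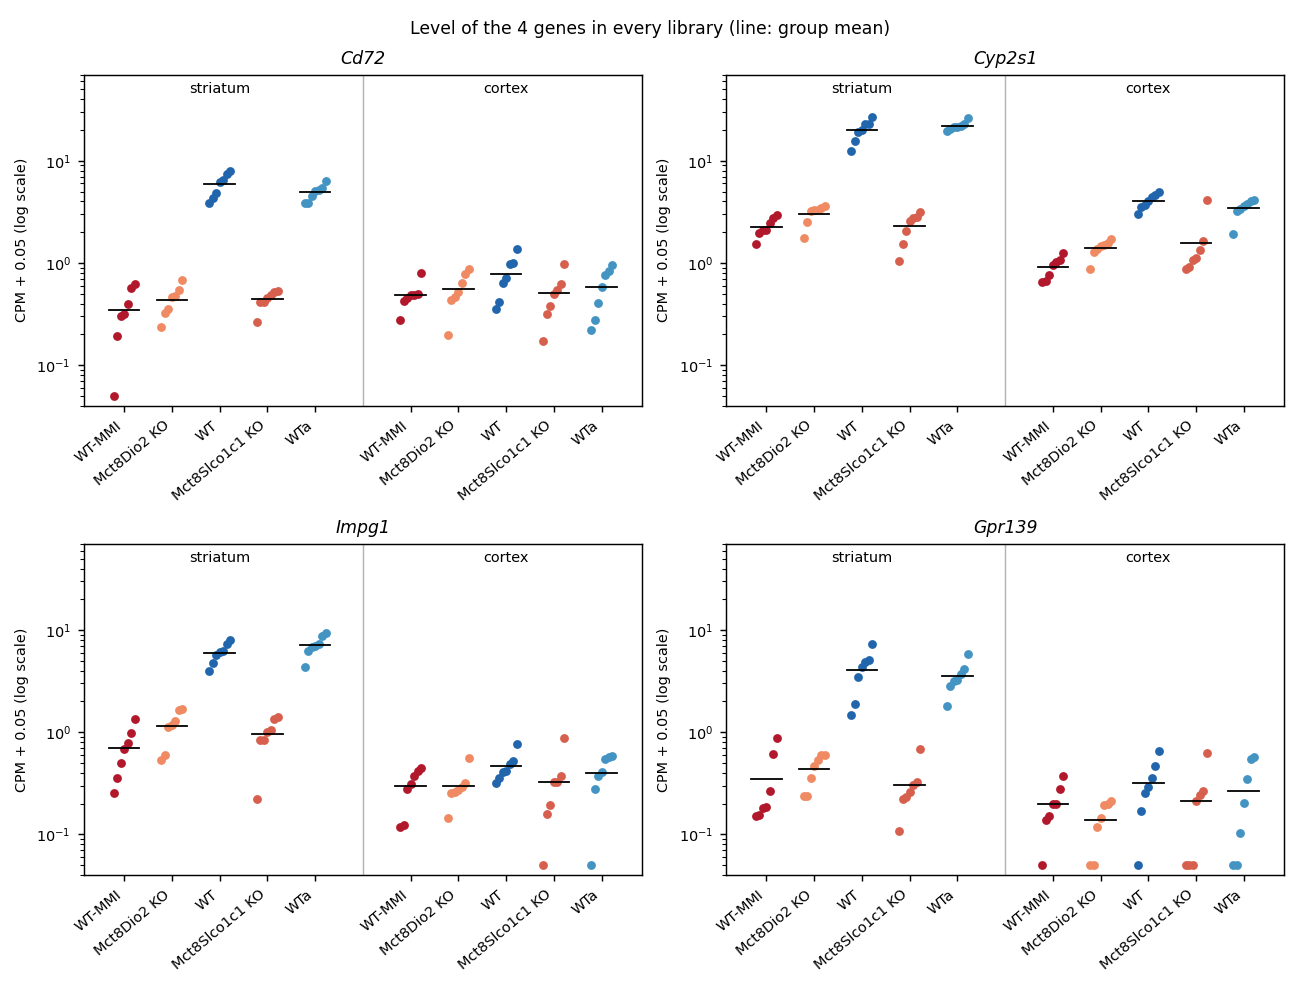
Level of Cd72, Cyp2s1, Impg1 and Gpr139 in each library, as CPM with 0.05 added on a log axis, for striatum and cortex of the 5 conditions, with a line at the mean of each group of 7. In striatum every library of WT-MMI, Mct8Dio2 KO and Mct8Slco1c1 KO lies below every library of WT or WTa for all 4 genes, while in cortex Cyp2s1 alone shows such a gap, in WT-MMI and Mct8Dio2 KO.

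Gpr139, the Gq-coupled receptor, was likewise low in striatum of all 3 models. It had 0.102, 0.137 and 0.826 CPM in WT-MMI and 0.186, 0.420 and 0.555 CPM in Mct8Dio2 KO, against 1.42, 4.28 and 7.30 CPM in WT. The WT libraries thus covered a wide range, with a mean of 4.02 ± 2.01 CPM, against 0.297 ± 0.285 CPM in WT-MMI and 0.384 ± 0.159 CPM in Mct8Dio2 KO. In Mct8Slco1c1 KO the values were 0.0579, 0.211 and 0.634 CPM, against 1.76, 3.23 and 5.79 CPM in WTa. No model library reached the lowest control library. The log2 changes were -3.66 ± 0.39 in WT-MMI, -3.32 ± 0.38 in Mct8Dio2 KO and -3.75 ± 0.42 in Mct8Slco1c1 KO (-3.53 ± 0.43 without the 3 libraries), or 12.7-fold, 9.96-fold and 13.4-fold lower.

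In cortex Gpr139 was too low to pass the filter on low counts. Group means ran between 0.0878 ± 0.0682 CPM in Mct8Dio2 KO and 0.270 ± 0.197 CPM in WT, with 0 to 9 reads per library. There were 8 and 29 reads in all in these 2 groups, 16 in WT-MMI, 16 in Mct8Slco1c1 KO (9 without the 3 libraries) and 24 in WTa. Fitted without the filter, Gpr139 differed by -0.86 ± 0.64 in WT-MMI (adjusted p = 0.504), -1.61 ± 0.73 in Mct8Dio2 KO (adjusted p = 0.313) and -0.61 ± 0.66 in Mct8Slco1c1 KO (adjusted p = 0.654), and none passed.

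Receptor partners and other receptors of striatum were called in both directions, as were genes in general. Over all genes tested there, 16.0%, 7.08% and 11.2% were called higher and 16.8%, 7.84% and 10.7% lower in WT-MMI, Mct8Dio2 KO and Mct8Slco1c1 KO. Of 11 tested genes linked to Gpr139 or Gq signalling, 1 rose and 3 fell in WT-MMI, 1 rose and 3 fell in Mct8Dio2 KO, and 2 rose and 2 fell in Mct8Slco1c1 KO. With the 3 libraries left out, 1 rose and 5 fell, 2 rose and 4 fell, and 3 rose and 3 fell. Plcb1, the phospholipase activated by Gq, fell in all 3 models, with changes of -0.80 ± 0.09 in WT-MMI (adjusted p = 2.77e-09), -0.77 ± 0.09 in Mct8Dio2 KO (adjusted p = 1.46e-08) and -0.47 ± 0.08 in Mct8Slco1c1 KO (adjusted p = 9.86e-05). Itpr1, the calcium channel opened by its product, changed by -0.99 ± 0.14 in WT-MMI (adjusted p = 1.82e-06) and -0.70 ± 0.14 in Mct8Dio2 KO (adjusted p = 0.000645), and -0.38 ± 0.14 in Mct8Slco1c1 KO did not pass (adjusted p = 0.0512). Mc4r, a melanocortin receptor, rose by 1.10 ± 0.19 in WT-MMI and 1.17 ± 0.19 in Mct8Dio2 KO (adjusted p = 1.92e-05 and 2.01e-05). Its change in Mct8Slco1c1 KO was 0.55 ± 0.19 (adjusted p = 0.0364) as labelled and 0.41 ± 0.19 (adjusted p = 0.118) without the 3 libraries.

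Among 16 other striatal G protein-coupled receptors, 4 rose and 4 fell in WT-MMI, 1 rose and 3 fell in Mct8Dio2 KO, and 3 rose and 1 fell in Mct8Slco1c1 KO. Once the 3 libraries were removed, 5 rose and 7 fell, 5 rose and 6 fell, and 5 rose and 3 fell. The cannabinoid receptor gene Cnr1 fell in all 3 models, with changes of -2.44 ± 0.12, -2.20 ± 0.12 and -1.62 ± 0.12 (adjusted p = 2.72e-17, 5.04e-16 and 7.95e-13). In cortex its changes were 0.11 ± 0.11 (adjusted p = 0.523), 0.09 ± 0.11 (adjusted p = 0.748) and 0.17 ± 0.11 (adjusted p = 0.288), and the last was called without the 3 libraries, at 0.28 ± 0.07 (adjusted p = 0.00503). Gpr101, an orphan receptor, rose in striatum by 1.82 ± 0.20, 1.43 ± 0.20 and 1.45 ± 0.20 (adjusted p = 1.25e-08, 2.9e-06 and 2.85e-06).

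Cyp2s1, the cytochrome P450, had the highest striatal level of the 4 genes also per length. Striatal WT libraries averaged 4.04 ± 0.992 RPKM, the CPM divided by exon length in kilobases, for Cyp2s1, 1.70 ± 0.457 for Cd72, 1.64 ± 0.375 for Impg1 and 0.830 ± 0.416 for Gpr139. Its CPM values in striatum were 1.49, 2.07 and 2.87 in WT-MMI and 1.68, 3.22 and 3.54 in Mct8Dio2 KO, against 12.4, 19.9 and 26.9 in WT. They were 0.984, 2.53 and 3.09 CPM in Mct8Slco1c1 KO, with the lowest value in the library labelled 7, against 19.3, 21.6 and 26.2 CPM in WTa. The groups did not overlap. Striatal log2 changes were -3.15 ± 0.18 in WT-MMI, -2.72 ± 0.17 in Mct8Dio2 KO and -3.30 ± 0.18 in Mct8Slco1c1 KO (-3.15 ± 0.16 without the 3 libraries), or 8.90-fold, 6.59-fold and 9.88-fold lower.

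Cyp2s1 was also lower in cortex, a tissue that the choice of genes did not use. It had 0.594, 0.897 and 1.20 CPM in cortex of WT-MMI and 0.827, 1.40 and 1.68 CPM in Mct8Dio2 KO, against 2.99, 3.96 and 4.91 CPM in WT. Neither model overlapped WT, and 8.10% and 3.62% of all genes tested in cortex were likewise lower in every library of WT-MMI and of Mct8Dio2 KO than in every WT library. By edgeR's test Cyp2s1 fell in both, with changes of -2.20 ± 0.25 in WT-MMI (adjusted p = 4.09e-08) and -1.53 ± 0.24 in Mct8Dio2 KO (adjusted p = 3.74e-05), with all 7 libraries of each model below every WT library. Over all alternatives tried, the adjusted p ran from 1.21e-15 to 2.77e-05 in WT-MMI and from 1.99e-09 to 0.00417 in Mct8Dio2 KO. Cyp2s1 was thus 1 of 2 members tested that was called in cortex, where 9.74% and 4.19% of all genes were called lower in these comparisons.

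In Mct8Slco1c1 KO the cortical values were 0.818, 1.06 and 4.10 CPM, against 1.88, 3.59 and 4.13 CPM in WTa. The highest of them belonged to the library labelled cortex 7, and the other 6 lay below every WTa library. Cyp2s1 fell, with a change of -1.17 ± 0.24 (adjusted p = 0.000915) as labelled and -1.56 ± 0.18 (adjusted p = 2.17e-08) without the 3 libraries, when the 5 remaining libraries averaged 1.16 ± 0.298 CPM. With only these 2 groups in the fit, as labelled, the change of -1.16 ± 0.33 did not pass (adjusted p = 0.0661), and over the 8 alternatives the adjusted p ran from 2.17e-08 to 0.0661. After removal of the 3 libraries, 20.0%, 11.8% and 11.6% of the cortex genes tested were called lower in WT-MMI, Mct8Dio2 KO and Mct8Slco1c1 KO, and as labelled 10.9%, 3.35% and 6.99% were called higher.

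**Figure D2:**
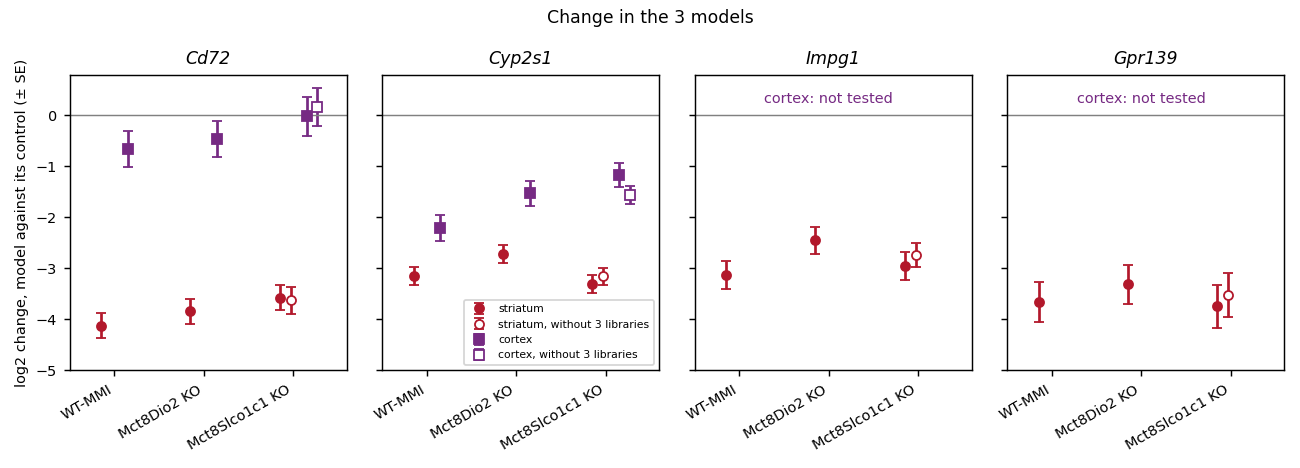
Log2 change of each gene in WT-MMI, Mct8Dio2 KO and Mct8Slco1c1 KO against its control, with SE bars, for striatum (circles) and cortex (squares), and with open symbols for Mct8Slco1c1 KO without the 3 libraries that stand apart. All striatal changes lie between -4.12 and -2.45, and in cortex Cyp2s1 lies between -2.20 and -1.17 while Cd72 lies between -0.67 and -0.02 as labelled. Impg1 and Gpr139 did not pass the filter on low counts in cortex and have no cortical symbol.

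The listed relatives and partners of Cyp2s1 changed by less. Cyp2a5, a family 2 gene that is not on the list, did not. It changed by -2.27 ± 0.35 in striatum of WT-MMI, -3.72 ± 0.43 in Mct8Dio2 KO and -1.83 ± 0.44 in Mct8Slco1c1 KO, and is described with the neighbours below. Of 9 tested genes of family 2 and its redox partners, 1 rose and 2 fell in striatum of WT-MMI, 1 rose and 1 fell in Mct8Dio2 KO, and 1 rose and 2 fell in Mct8Slco1c1 KO. Leaving those 3 libraries out, 1 rose and 3 fell, 1 rose and 2 fell, and 1 rose and 2 fell. Of all genes tested in striatum, 16.0%, 7.08% and 11.2% were called higher and 16.8%, 7.84% and 10.7% lower as labelled. Cyp2j9, of the enzyme group that forms epoxides of arachidonic acid, fell in all 3 models, with changes of -0.22 ± 0.08 (adjusted p = 0.0238), -0.26 ± 0.08 (adjusted p = 0.0151) and -0.39 ± 0.08 (adjusted p = 0.000259). Por, the reductase that supplies electrons to these enzymes, fell by 0.22 ± 0.04 in WT-MMI (adjusted p = 0.000236). The median log2 change of the list was 0.02 in WT-MMI, -0.05 in Mct8Dio2 KO and -0.11 in Mct8Slco1c1 KO, beside 0.01, 0.01 and 0.02 over all genes.

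Genes of retinoic acid metabolism were called in both directions. Of 13 tested, 4 rose and 3 fell in striatum of WT-MMI, 3 rose and 3 fell in Mct8Dio2 KO, and 1 rose and 2 fell in Mct8Slco1c1 KO (3 and 2 without the 3 libraries, with 4 and 4 in each of the others). The shares over all genes as labelled were 16.0%, 7.08% and 11.2% higher and 16.8%, 7.84% and 10.7% lower. Aldh1a1, which makes retinoic acid, fell in all 3 models, with changes of -3.94 ± 0.10 in WT-MMI (adjusted p = 4.09e-26), -2.95 ± 0.10 in Mct8Slco1c1 KO (adjusted p = 3.92e-23) and -0.49 ± 0.08 in Mct8Dio2 KO (adjusted p = 5.66e-05). Crabp2, a carrier of retinoic acid, changed by -1.79 ± 0.32, -1.52 ± 0.32 and -1.71 ± 0.36 in striatum (adjusted p = 4.79e-05, 0.000854 and 0.000546). In cortex Crabp2 was not called in any model, with changes of 0.40 ± 0.38, 0.62 ± 0.38 and -0.09 ± 0.40 (adjusted p = 0.524, 0.4 and 0.916).

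Impg1, the photoreceptor matrix proteoglycan, had 0.205, 0.628 and 1.29 CPM in striatum of WT-MMI and 0.485, 1.14 and 1.64 CPM in Mct8Dio2 KO, against 3.91, 6.02 and 7.87 CPM in WT. In Mct8Slco1c1 KO it had 0.174, 0.950 and 1.36 CPM, against 4.31, 6.99 and 9.26 CPM in WTa. The lowest Mct8Slco1c1 KO value belonged to the library labelled striatum 7, and without it the lowest was 0.783 CPM. No model library overlapped its controls. The log2 changes were -3.13 ± 0.28 in WT-MMI, -2.45 ± 0.26 in Mct8Dio2 KO and -2.96 ± 0.27 in Mct8Slco1c1 KO (-2.74 ± 0.24 without the 3 libraries), or 8.76-fold, 5.47-fold and 7.80-fold lower. Cortical Impg1 averaged between 0.246 ± 0.134 CPM in WT-MMI and 0.416 ± 0.148 CPM in WT, with 0 to 10 reads per library, and did not pass the filter. Fitted without it, Impg1 differed by -0.69 ± 0.42 in WT-MMI (adjusted p = 0.362), -0.67 ± 0.43 in Mct8Dio2 KO (adjusted p = 0.553) and -0.32 ± 0.43 in Mct8Slco1c1 KO (adjusted p = 0.745).

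The retinal genes that define photoreceptors were low in striatum throughout. The 17 genes of the photoreceptor list summed to 10.7 to 27.2 CPM in WT-MMI, 15.5 to 44.8 CPM in Mct8Dio2 KO and 18.6 to 45.0 CPM in WT, and to 12.1 to 24.7 CPM in Mct8Slco1c1 KO and 11.0 to 26.4 CPM in WTa. Of the 6 tested, 1 fell in WT-MMI, none was called in Mct8Dio2 KO, and 1 rose and 1 fell in Mct8Slco1c1 KO. Without the 3 libraries, 2 fell in WT-MMI, none in Mct8Dio2 KO and 1 in Mct8Slco1c1 KO, with none higher. Rom1, an outer segment membrane protein, fell by 0.57 ± 0.13 in WT-MMI (adjusted p = 0.00108). Genes that make or bind hyaluronan were called in both directions: of 14 tested, 2 rose and 4 fell in WT-MMI, 2 rose and 1 fell in Mct8Dio2 KO, and 2 rose and 5 fell in Mct8Slco1c1 KO (2 and 6 without the 3 libraries, with 3 and 4 in WT-MMI and 2 and 2 in Mct8Dio2 KO). Beside both lists, 16.0%, 7.08% and 11.2% of all genes tested in striatum were called higher and 16.8%, 7.84% and 10.7% lower as labelled. Hapln1, a link protein of hyaluronan matrices, rose in striatum by 0.67 ± 0.09, 0.35 ± 0.09 and 0.48 ± 0.09 (adjusted p = 5.1e-07, 0.0078 and 0.000205).

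Medium spiny neuron markers were lower in WT-MMI and Mct8Dio2 KO, by less than the members. Summed over 25 markers, the level was 10110 to 12960 CPM in striatum of WT-MMI and 11880 to 14060 CPM in Mct8Dio2 KO, against 15880 to 20790 CPM in WT. It was 14010 to 15720 CPM in Mct8Slco1c1 KO without library 7, which had 1802 CPM, against 15170 to 17150 CPM in WTa. Of the 25 markers, 8 fell in WT-MMI with none higher, 1 rose and 5 fell in Mct8Dio2 KO, and 1 rose and 4 fell in Mct8Slco1c1 KO. Without the 3 libraries, 1 rose and 18 fell, 2 rose and 16 fell, and 6 rose and 8 fell. As labelled, 16.0%, 7.08% and 11.2% of all genes tested in striatum were called higher and 16.8%, 7.84% and 10.7% lower. The median log2 change of the list was -0.46 in WT-MMI, -0.37 in Mct8Dio2 KO and -0.16 in Mct8Slco1c1 KO, the last turning to 0.05 without the 3 libraries, beside changes of -2.45 or lower for the members. Rasd2, a small G protein of striatum, fell in all 3 models, with changes of -1.47 ± 0.27, -1.14 ± 0.27 and -1.07 ± 0.27 (adjusted p = 6.76e-05, 0.00289 and 0.00357). Pde10a, the phosphodiesterase of these neurons, changed by -1.30 ± 0.27, -1.09 ± 0.27 and -0.91 ± 0.27 (adjusted p = 0.000358, 0.00516 and 0.014). The part of the marker level in the members' values was not tested.

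Known thyroid hormone genes changed with the members. Of 22 tested genes that the hormone is known to induce, none of them a member, 18 fell in WT-MMI, 15 in Mct8Dio2 KO and 18 in Mct8Slco1c1 KO, with 1 higher, in Mct8Dio2 KO. Their median log2 changes were -1.37, -0.87 and -1.13. Nefm, a neurofilament subunit, changed by -1.69 ± 0.09, -1.41 ± 0.09 and -1.42 ± 0.09 (adjusted p = 2.5e-16, 5.36e-14 and 5e-14). Of 11 genes known to be repressed, 10, 7 and 8 rose and none fell. Without the 3 libraries, 18, 16 and 18 of the induced genes fell and 10, 7 and 8 of the repressed genes rose. As labelled, 16.8%, 7.84% and 10.7% of all genes tested in striatum were called lower and 16.0%, 7.08% and 11.2% higher. The lists were chosen with earlier results of these data known, so the counts are a description and no separate support.

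The comparison of WTa with WT asks whether the members differed between the control groups. In striatum these libraries are the control side of the falls that chose the genes, so the differences carry no test. Cd72 differed by -0.25 ± 0.18, Gpr139 by -0.20 ± 0.29, Cyp2s1 by 0.14 ± 0.15 and Impg1 by 0.26 ± 0.22. In cortex Cd72 differed by -0.52 ± 0.36 (adjusted p = 0.73) and Cyp2s1 by -0.22 ± 0.22 (adjusted p = 0.889), and 0.994% of genes were called. The unadjusted p was 0.154 and 0.32, and over the alternatives the adjusted p was 0.393 or more. The share of genes called depended on libraries of neither group, which enter the shared estimate of the spread. It was 6.71% (1101 genes) without the 3 libraries, against 161 genes as labelled, with 538 genes without cortex Mct8Slco1c1 KO 1 and 293 without cortex Mct8Slco1c1 KO 7.

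Mct8Dio2 KO was also compared with WT-MMI directly, since both were set against the same WT libraries. All 4 striatal means were higher in Mct8Dio2 KO, by 0.68 ± 0.33 for Impg1, 0.43 ± 0.20 for Cyp2s1, 0.35 ± 0.52 for Gpr139 and 0.28 ± 0.35 for Cd72. These libraries were among those that chose the genes as low, so the differences carry no test. In cortex, where 3.19% of genes were called, Cd72 differed by 0.21 ± 0.38 (adjusted p = 0.955). Cortical Cyp2s1 was higher in Mct8Dio2 KO by 0.67 ± 0.28 (adjusted p = 0.271) as labelled. It passed without the 3 libraries, at 0.68 ± 0.20 (adjusted p = 0.0228, with 11.0% of genes called), and when the library labelled cortex Mct8Slco1c1 KO 7 alone was left out (adjusted p = 0.0379). Over the 8 alternatives the adjusted p ran from 0.0228 to 0.377. Although the 3 libraries belong to neither group, they enter the shared estimate of the spread.

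Between the tissues, all 4 genes were higher in striatum than in cortex of the controls. In WT the log2 difference, striatum minus cortex, was 3.81 ± 0.30 for Impg1, 3.78 ± 0.41 for Gpr139, 3.03 ± 0.25 for Cd72 and 2.31 ± 0.19 for Cyp2s1. In WTa it was 4.30 ± 0.31, 3.78 ± 0.43, 3.30 ± 0.27 and 2.68 ± 0.19. These and the following differences use the striatal libraries that chose the genes and carry no test.

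In the models the striatal excess was reduced to different degrees. For Cd72 the sign turned, with -0.44 ± 0.37 in WT-MMI, -0.35 ± 0.36 in Mct8Dio2 KO and -0.26 ± 0.36 in Mct8Slco1c1 KO (-0.49 ± 0.40 without the 3 libraries), values close in size to their SE. Cyp2s1 kept a striatal excess of 1.36 ± 0.25 in WT-MMI, 1.13 ± 0.23 in Mct8Dio2 KO and 0.55 ± 0.24 in Mct8Slco1c1 KO (1.08 ± 0.22 without the 3 libraries). Impg1 kept 1.35 ± 0.40, 2.03 ± 0.39 and 1.66 ± 0.39 (2.18 ± 0.39). Gpr139 had 0.97 ± 0.64, 2.08 ± 0.71 and 0.67 ± 0.68 (1.38 ± 0.78), resting on very few cortical reads.

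The change in striatum minus the change in cortex puts the same values per model. For Cd72 it was -3.47 ± 0.45 in WT-MMI, -3.38 ± 0.45 in Mct8Dio2 KO and -3.57 ± 0.46 in Mct8Slco1c1 KO (-3.80 ± 0.48 without the 3 libraries). For Cyp2s1 it was -0.95 ± 0.32, -1.19 ± 0.30 and -2.13 ± 0.30, and the last was -1.59 ± 0.27 without the 3 libraries. Impg1 had -2.46 ± 0.56, -1.78 ± 0.56 and -2.64 ± 0.56 (-2.11 ± 0.56), and Gpr139 had -2.81 ± 0.87, -1.70 ± 1.07 and -3.12 ± 0.90 (-2.39 ± 1.08).

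**Figure D3:**
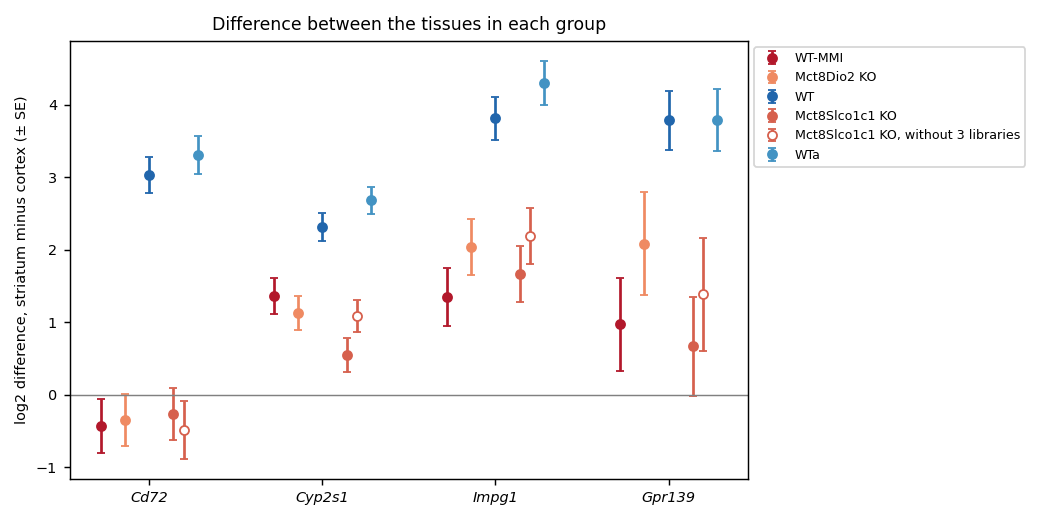
Log2 difference between striatum and cortex for each gene in the 5 conditions, with SE bars and an open symbol for Mct8Slco1c1 KO without the 3 libraries that stand apart. WT and WTa lie between 2.31 and 4.30 for all 4 genes, while the models lie between -0.44 and 2.08 as labelled, with Cd72 below 0 in each.

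Ordered over the 10 groups, each gene had striatum of WT and WTa on top, and only below those did a gap separate neighbours in the order. For Cd72 the next was cortex WT, at 0.730 ± 0.359 CPM, and the last was striatum WT-MMI, at 0.298 ± 0.198 CPM, so that by mean every model's striatum lay below all cortical groups. For Cyp2s1 the cortex of WT (3.98 ± 0.682 CPM) and WTa (3.41 ± 0.755 CPM) stood by mean above striatum of every model, of which Mct8Dio2 KO was highest at 2.96 ± 0.655 CPM, and cortex WT-MMI came last at 0.857 ± 0.227 CPM. For Impg1 the striatum of the models, at 0.647 ± 0.377 to 1.10 ± 0.453 CPM, stood by mean above every cortical group. For Gpr139 as labelled, the models' striatum and the cortical groups were interleaved, between 0.384 ± 0.159 CPM in striatum of Mct8Dio2 KO and 0.0878 ± 0.0682 CPM in cortex of Mct8Dio2 KO. Without the library labelled striatum 7, striatum of Mct8Slco1c1 KO averaged 0.288 ± 0.174 CPM, against 0.270 ± 0.197 CPM in cortex of WT. By mean every model's striatum then lay above every cortical group, by less than the SD in that case. Below the gap, and between striatum of WT and WTa on top, every pair of neighbours in the order overlapped in range.

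Within the control mice Cyp2s1 varied with Cd72 and with Gpr139, while no relation of Impg1 passed the test. Deviations of log2 CPM from the group mean were taken over the 14 striatal libraries of WTa and WT. They leave out the difference between groups that chose the genes, but the same libraries entered that choice. Whether the choice also acts on these deviations was not tested, and the relations were chosen after the values were seen. Pearson's r was 0.774 between Cd72 and Cyp2s1 (permutation p = 0.0038, adjusted p = 0.0228 over 6 pairs) and 0.747 between Cyp2s1 and Gpr139 (permutation p = 0.00887, adjusted p = 0.0266). Spearman's rho was 0.912 (permutation p = 0.00015) and 0.745 (permutation p = 0.00961). Without the 2 libraries farthest from the median on the first gene named, r was 0.868 and 0.745. Within WTa the first pair had r = 0.812 and within WT 0.79, and the second pair had 0.435 and 0.839, over 7 libraries each. Over all 35 striatal libraries as labelled, the models with their few reads included, deviations from the group means had r = 0.177 for the first pair and 0.569 for the second, given without a test. Cd72 and Gpr139 had r = 0.505 (rho = 0.587, permutation p = 0.11 and 0.0571, adjusted p = 0.22). Impg1 had r = -0.088 with Cd72, 0.001 with Cyp2s1 and -0.069 with Gpr139 (permutation p = 0.773, 0.998 and 0.82, adjusted p = 0.984, 0.998 and 0.984, with rho between -0.138 and -0.121).

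No relation of a member to the medium spiny neuron markers passed adjustment in these 14 libraries. The summed markers had r = 0.640 with Cyp2s1 (permutation p = 0.0426), 0.594 with Cd72 (permutation p = 0.0501), 0.569 with Gpr139 (permutation p = 0.0641) and 0.031 with Impg1 (permutation p = 0.917). The first 3 had an adjusted p of 0.0855 over the 4 relations, and Spearman's rho was 0.538, 0.626, 0.640 and 0.046 (permutation p = 0.0796, 0.0346, 0.0278 and 0.885). Without the 2 libraries farthest from the median, r was 0.540, 0.308, 0.621 and 0.189. In WTa alone the markers had r = 0.151 with Cyp2s1 and 0.011 with Cd72, against 0.760 and 0.824 in WT, so the pooled values for these genes rest on the WT libraries. The number of gene counts had r = 0.062, -0.232, -0.075 and -0.024 with Cyp2s1, Cd72, Gpr139 and Impg1 (rho between -0.130 and 0.002, permutation p of 0.501 or more, adjusted p of 0.938 or more). The relations were chosen after the values were seen, and the part of the marker level in the co-variation of the members was not tested.

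**Figure D4:**
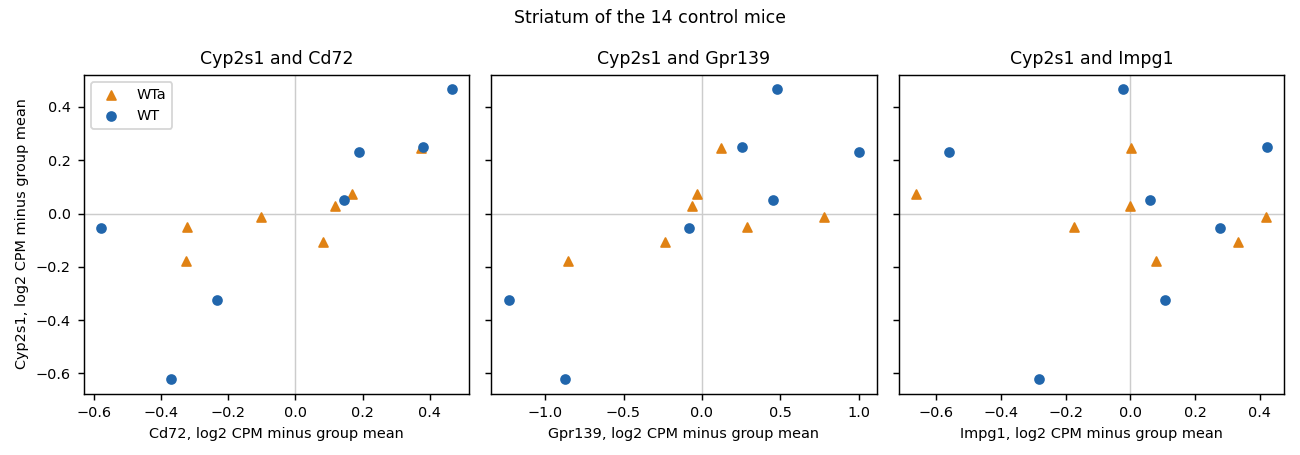
Deviation of log2 CPM from the group mean in striatum of the 14 control mice, 7 WTa (triangles) and 7 WT (circles), for Cyp2s1 against Cd72, Gpr139 and Impg1. Points of the first 2 panels rise together (r = 0.774 and 0.747), and those of the third show no slope (r = 0.001).

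Neighbouring genes did not show falls of the same size, with 1 exception. The 16 tested genes nearest to the members, 2 on each side, included 4 lower and 3 higher in WT-MMI, 3 lower and 0 higher in Mct8Dio2 KO, and 2 lower and 1 higher in Mct8Slco1c1 KO. Tesk1, a kinase gene on the opposite strand, shares 1603 bases with the 8167-base span of Cd72. Tesk1 had 41.0 ± 5.35 CPM in striatum of WT and changed by -0.47 ± 0.08 in WT-MMI (adjusted p = 2.57e-05), -0.28 ± 0.08 in Mct8Dio2 KO (adjusted p = 0.017) and 0.03 ± 0.08 in Mct8Slco1c1 KO (adjusted p = 0.84). The kit does not mark strand, so reads of Cd72 and Tesk1 in the shared stretch cannot be told apart. Cyp2s1 is also overlapped by 1 counted gene, which is not among the 16 neighbours. How far reads of that gene enter the Cyp2s1 counts was not tested. Axl, a receptor kinase gene 13.8 kb from Cyp2s1, changed by 0.02 ± 0.06, 0.04 ± 0.06 and -0.04 ± 0.06, and Myo6, a motor protein gene 1.6 kb from Impg1, by 0.08 ± 0.07, -0.13 ± 0.07 and -0.18 ± 0.07 (adjusted p = 0.439, 0.242 and 0.0671). Gprc5b, an orphan receptor gene 146 kb from Gpr139, changed by -0.49 ± 0.09, -0.37 ± 0.09 and -0.28 ± 0.09 (adjusted p = 4.81e-05, 0.00324 and 0.0192).

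The exception was Cyp2a5, a cytochrome P450 gene of the same chromosomal cluster, 1018 kb from Cyp2s1. It had 1.04 ± 0.351 CPM in striatum of WT and fell in all 3 models, with changes of -2.27 ± 0.35 in WT-MMI (adjusted p = 3.74e-06), -3.72 ± 0.43 in Mct8Dio2 KO (adjusted p = 5.1e-08) and -1.83 ± 0.44 in Mct8Slco1c1 KO (adjusted p = 0.00259; -1.56 ± 0.43 and adjusted p = 0.00579 without the 3 libraries). Cyp2a5 has a near-identical copy, Cyp2a4, and how reads were split between them is uncertain.

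**Figure D5:**
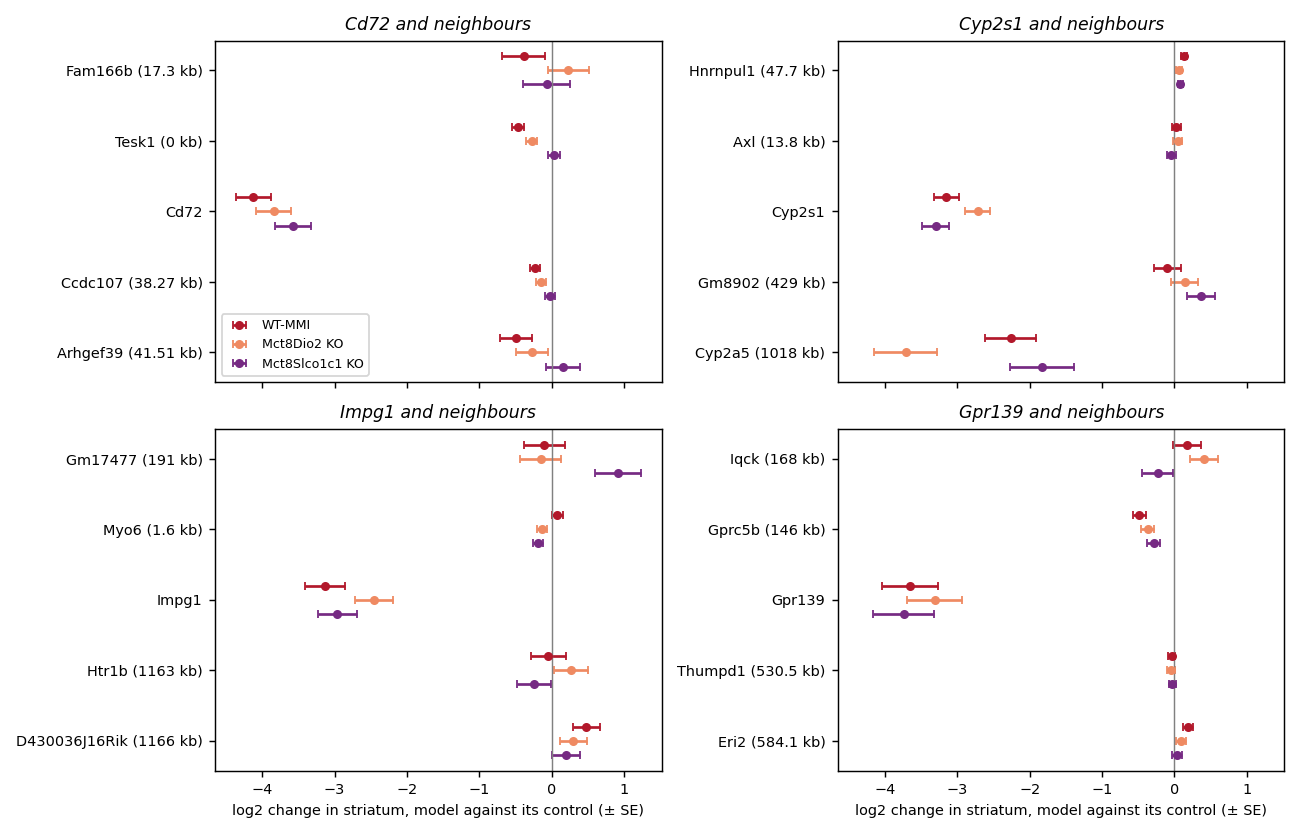
Log2 change in striatum of WT-MMI, Mct8Dio2 KO and Mct8Slco1c1 KO against their controls, with SE bars, for each member and the 2 nearest tested genes on each side, with the distance to the member in kilobases. The members lie between -4.12 and -2.45, Cyp2a5 lies between -3.72 and -1.83, and the other neighbours lie between -0.49 and 0.92.

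Across the 35 striatal libraries, other genes followed the members closely. Likeness was the Pearson correlation of log2 CPM with each of 15101 genes above a mean of 1 CPM, given without a test because the groups fall into low and high clusters. For Cd72 the 5 genes most alike were Ctsb (0.967), Kctd17 (0.966), Nefm (0.965), Sgpp2 (0.952) and Cnr1 (0.950). For Cyp2s1 they were Me2 (0.973), Vmp1 (0.963), Sgpp2 (0.961), Ctsb (0.959) and Nefm (0.958). For Impg1 they were Ccm2 (0.954), Vmp1 (0.949), Sgpp2 (0.942), Pcp4 (0.939) and Kcnk13 (0.934), and for Gpr139 they were Cyp2s1 (0.953), Sgpp2 (0.942), Me2 (0.937), Nefm (0.935) and Ghitm (0.933). Sgpp2, a sphingosine-1-phosphate phosphatase, was on all 4 lists as labelled and changed by -2.52 ± 0.14, -1.84 ± 0.13 and -1.99 ± 0.14 in the 3 models. Without the library labelled striatum Mct8Slco1c1 KO 7, Sgpp2 stayed on the lists of Impg1 and Gpr139 but not on those of Cd72 and Cyp2s1. By Spearman's correlation it was on the list of Gpr139 only. Sgpp2 and Ctsb were picked for following the members over the same libraries, so their changes carry no test. Ctsb, the protease cathepsin B, followed Cd72 closely with changes of -0.54 ± 0.03, -0.46 ± 0.03 and -0.51 ± 0.03, since a correlation takes no account of size.

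Over the means of the 10 groups, both tissues included, the order of likeness was different. The most alike were Kctd17 for Cd72 (0.970), Tesk2 for Cyp2s1 (0.985), Tmprss6 for Impg1 (0.993) and Me2 for Gpr139 (0.987). Only 1 of the 5 genes nearest over libraries was also among the 5 nearest over group means for Cd72, Cyp2s1 and Gpr139, and 0 for Impg1. Without the library labelled striatum Mct8Slco1c1 KO 7, 3 of the 5 were shared for Cd72, Impg1 and Gpr139 and 1 for Cyp2s1. By Spearman's correlation over the 35 libraries, 1 of the 5 was shared for Cd72 and Cyp2s1, 0 for Impg1 and 3 for Gpr139. Tmprss6, a membrane serine protease gene known from iron metabolism, changed in striatum by -2.34 ± 0.32, -2.02 ± 0.31 and -2.60 ± 0.32. It was picked for following Impg1 over these groups, so these changes carry no test either. Among all 16267 genes, ordered from the largest fall, Cd72 stood at place 5 in WT-MMI, 5 in Mct8Dio2 KO and 4 in Mct8Slco1c1 KO, and Gpr139 at 10, 8 and 2. Cyp2s1 stood at 12, 12 and 7 and Impg1 at 13, 14 and 9, which describes the choice of the genes.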

How the data were processed

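RNA from cerebral cortex and striatum was prepared with the TruSeq v2 kit, which does not mark strand, and sequenced as 75-base single reads, per the labels' protocols. The deposited values are raw counts of reads per gene, not normalized by the authors. The submitters' processing notes name CASAVA, FastQC, Bowtie, TopHat, HTSeq and edgeR and the build GRCm38, with no versions given in the sources used here. Of 38293 gene lines, 36429 were matched to GENCODE M21 for symbols and positions, and 5 lines that name no gene were left out: reads outside genes made up 5.36% to 11.8% and ambiguous reads 1.53% to 1.90% of each library.

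One fit held the 35 libraries of a tissue (R 4.3.3, edgeR 4.0.16, TMM, filterByExpr, robust quasi-likelihood F tests), and another all 70 for differences between tissues. A gene is called at an adjusted p under 0.05 (Benjamini-Hochberg, over all genes of the fit). The fits tested 16267 genes in striatum, 16198 in cortex and 16814 in both. SEs come from the log2 change and the F statistic. Log2 CPM of single libraries uses a prior count of 2. The fit was checked on simulated counts. Striatal differences of the members between control groups and between models, planned with a test, are given without one because those libraries chose the genes. Permutation tests, 2-sided, drew 100000 orders within groups. Each group holds 7 separate mice, and no batch is named in the labels.

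Members and gene lists were chosen with earlier results of these data known. Named genes are the members, the 2 nearest tested genes on each side, the 5 genes most alike over 35 libraries and over 10 group means, up to 3 genes per list with the smallest p in a striatal comparison, Dio2, Slco1c1 and B cell genes, of which Cd79a, Cd79b and Ms4a1 are given and another is not reported here. Cyp2a4 was named after the values of Cyp2a5 were seen. The same mouse gave both tissues, per the labels: over 33 mice, deviations in striatum and cortex correlated with a median r of 0.168 (-0.005 to 0.466), and mouse as a block was an alternative for differences between tissues.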

Additional observations from a re-analysis of the deposited data

Results flagged for a closer look

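Levels of the members were screened for a library far from the others of its group, by a gap to the nearest library over the range of the group above 0.568. Of 40 groups of 7 libraries, 8 were marked, and chance alone marks about 1 in 20. The library labelled cortex Mct8Slco1c1 KO 7, which lay with striatum in its tissue position, was the highest of its group for 3 genes. It had 4.10 CPM of Cyp2s1 against 1.60 CPM in the next library (gap over range 0.761), 0.573 against 0.213 CPM of Gpr139 (0.628) and 0.819 against 0.321 CPM of Impg1 (0.608).

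The other 5 rest on a few reads in most cases. Cd72 was highest in cortex WT-MMI 2, at 0.747 CPM (0.569), and lowest in striatum Mct8Slco1c1 KO 4, at 0.211 CPM (0.574). Cyp2s1 was lowest in cortex WTa 7, at 1.88 against 3.21 CPM in the next (0.591). Gpr139 was highest in striatum Mct8Slco1c1 KO 5, at 0.634 CPM (0.622), and Impg1 in cortex Mct8Dio2 KO 4, at 0.509 CPM (0.573).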

How the results depend on the processing

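The 62 member values were recomputed 341 times, under another scaling, without the filter on low counts, with DESeq2 1.42.0, with only the groups compared, with a block or without libraries, and 333 of the recomputed values kept their direction and their side of the threshold, or moved by less than the spread between libraries where no test was given. Every striatal change of a member in a model stayed between -4.16 and -2.38.

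The cortical change of Cd72 in Mct8Slco1c1 KO turned positive without replicate 1 or 7 (0.084 and 0.048) and without the 3 libraries that stand apart (0.167). With only the 2 groups compared, cortical Cyp2s1 in Mct8Slco1c1 KO lost its call (-1.16). The cause was not tested. The counts of called genes depended on the libraries in the fit, which share 1 estimate of the spread. In cortex of WT-MMI 3350 genes were called as labelled, 6559 without the 3 libraries, between 4147 and 5463 without Mct8Slco1c1 KO replicate 7 or 1, and 6274 with only the 2 groups. In Mct8Dio2 KO 1221 were called, 3760 without the 3 libraries, between 1914 and 2610 without replicate 7 or 1, and 2810 with only the 2 groups. In Mct8Slco1c1 KO 2080 were called, 3569 without the 3 libraries, between 2481 and 3160 without replicate 7 or 1, and 580 with only the 2 groups. In cortex of Mct8Dio2 KO against WT-MMI 516 were called, 1805 without the 3 libraries, between 753 and 1090 without replicate 7 or 1, and 1411 with only the 2 groups. In cortex of WTa against WT 161 were called, 331 by DESeq2, 1094 with only the 2 groups and 74 with the replicate block. For the change in striatum minus that in cortex 418 were called in WT-MMI, 188 in Mct8Dio2 KO and 569 in Mct8Slco1c1 KO, against 1310, 694 and 503 without the 3 libraries, and in Mct8Slco1c1 KO 337 with mouse as a block and 345 without the filter. Cortical Cyp2s1 in Mct8Dio2 KO against WT-MMI gained its call in 3 of 8 alternatives.

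Replicate numbers are shared by different mice of the groups. Deviations of same-numbered libraries correlated between -0.2 and 0.419 in striatum and between -0.143 and 0.241 in cortex. The median per pair of groups lay between -0.037 and 0.042 in striatum and between -0.016 and 0.177 in cortex. The highest, 0.177, was for cortex of Mct8Dio2 KO and WT, against 0.005 for libraries of other numbers. Whether same-numbered libraries share more than a number was not tested. With the number as a replicate block, 805 genes were called in cortex of Mct8Dio2 KO, and the other 5 counts of models against controls moved by less than 1.5 times. Under that block cortical Cyp2s1 changed by -2.08, -1.39 and -1.21 in the 3 models, all called. With mouse as a block, no difference between tissues moved beyond the spread. Without the filter, cortical changes of Impg1 and Gpr139 in the models against their controls lay between -1.61 and -0.32 (adjusted p of 0.313 or more). Depth leaves few reads per library for Cd72, Gpr139 and Impg1 in cortex and in striatum of the models.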

Other observations

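Cyp2s1 is a known target of the aryl hydrocarbon receptor, so the genes of that pathway were also listed. Of 7 tested in striatum, 3 rose in WT-MMI with none lower, none was called in Mct8Dio2 KO, and 2 rose in Mct8Slco1c1 KO. Without the 3 libraries that stand apart, 3, 1 and 1 rose and none fell. Over all genes as labelled, 16.0%, 7.08% and 11.2% were called higher and 16.8%, 7.84% and 10.7% lower. At those shares, a lack of lower calls among 7 genes decides nothing. The part of this receptor in the Cyp2s1 values was not tested. Cyp1b1, a classical target of the receptor, rose by 1.08 ± 0.19 in WT-MMI (adjusted p = 3.72e-05) and measured 0.35 ± 0.20 in Mct8Dio2 KO (adjusted p = 0.256) and 0.33 ± 0.19 in Mct8Slco1c1 KO (adjusted p = 0.234). The receptor gene Ahr rose by 0.33 ± 0.13 in WT-MMI (adjusted p = 0.0488) and 0.37 ± 0.13 in Mct8Slco1c1 KO (adjusted p = 0.0448; 0.17 ± 0.11 and adjusted p = 0.242 without the 3 libraries), and measured -0.05 ± 0.13 in Mct8Dio2 KO (adjusted p = 0.839). The median log2 change of the list was 0.33, 0.11 and 0.31 in WT-MMI, Mct8Dio2 KO and Mct8Slco1c1 KO, beside 0.01, 0.01 and 0.02 over all genes.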
